A study of Mus musculus and Rattus norvegicus with 24 samples.

Results

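Respiratory complex I (NADH:ubiquinone oxidoreductase) was followed through the 44 genes of the table whose symbols begin with Nduf, out of 9595 listed genes, in 24 single cells. Members were taken by symbol alone. They were 37 subunit genes and 7 assembly factors, whose symbols begin with Ndufaf. By role, 7 subunit genes were core subunits, 7 were accessory subunits of the NADH-oxidising N module and 2 of the ubiquinone-binding Q module. A further 8 were accessory subunits of the proximal membrane arm and 11 of the distal membrane arm. Ndufa4 and its paralog Ndufa4l2 were first described as complex I subunits and were later assigned to complex IV, so values are also given without them. Ndufs5, Ndufb1, Ndufaf7 and the subunits that mitochondrial DNA encodes were not analysed here.

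The 24 cells fell into 3 groups of 8, named A to H within each group. Transplanted cells were cardiomyocytes derived from a mouse embryonic stem cell line (mESC-CM, genotype Isl1-Cre; Rosa-RFP; aMHC-GFP), recovered from neonatal rat hearts at 30 days in vivo. Cultured cells were cardiomyocytes of that same line and genotype, kept 30 days in vitro, and adult cells were wild-type (WT) ventricular cardiomyocytes of adult rats. In this line green fluorescence is driven by the promoter of alpha myosin heavy chain (aMHC), a heart muscle gene, and Cre by Isl1, a gene of cardiac progenitors, which turns on red fluorescence from the Rosa locus. Isolation was by fluorescence sorting or manual picking, without a record here of which applied to which cell. The labels name no animal, heart or culture, so each group was treated as 1 sample, no test between groups was made, and spread between cells may be technical.

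Complex I takes electrons from NADH and passes them through a flavin and a chain of iron-sulphur clusters to ubiquinone, while its membrane arm pumps protons. The core subunits carry the catalysis, the accessory subunits surround and stabilise them, and assembly factors help to build the enzyme without staying in it. Heart muscle relies on oxidative phosphorylation, and cardiomyocytes gain mitochondria and oxidative capacity as they mature after birth.

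Levels are counts of the sum over the 8 cells of a group, scaled to a total of 1000000 counts (CPM), and ratios are between those sums. Brackets hold exact 95% intervals, which cover counting error only, since amplified reads are not independent molecules. For a group with no count, 3 counts in its summed total served as a floor, so a ratio against it is a bound. A CPM is a share of the counts of listed genes and does not measure the amount of RNA in a cell. Where levels of different genes are set beside each other by role, they are given per kilobase of spliced transcript (CPM per kb). Plain CPM served to choose and order genes, to correlate levels, and to set ranges and minimums of level. Total counts ran from 88796 to 344224 in transplanted cells, from 16099 to 60789 in cultured cells and from 108546 to 223744 in adult cells. Every pair of cells within a group differed by more than sampling noise.

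Several cultured libraries stood apart. Rpph1, the RNA component of RNase P, took 2.51 to 5.48% of counts in cultured cells B, C, D and E, and at most 0.0574% in cultured A, F, G and H. The count-weighted median transcript length, without titin, was 3589 to 3753 bases in B to E, 1878.5 to 2562 bases in A, F, G and H, and 893 to 1142 bases in transplanted and adult cells. Ttn, Myh6 and Tnnt2, genes that define heart muscle, were without a count in cultured F, G and H. Cultured B, C, D and E each held 1254 to 2849 counts of Ttn. Of 13 cardiomyocyte markers, 12 had counts in the transplanted and the adult cells, at 16.7 to 23.7% and 18.6 to 22.1% of counts per cell, and all 13 had counts in cultured cells, at 0.00837 to 17.5%. Myl7 was the marker at 0 in transplanted and in adult cells. Against culture, 8 of the 13 were at least 2-fold higher in transplanted cells and 5 lower, beside 22.5% and 64.0% of all measured genes. The 5 lower were Ttn (2131 against 45112 CPM), Myh6 (1094 against 2697), Myh7 (22.3 against 1048), Ryr2 (192 against 941) and Myl7 (0 against 1605). In adult cells 8 were higher and 4 lower than in culture, beside 23.0% and 62.1%. Fibroblast markers (7 of 10 listed) had no count in transplanted cells. They took at most 0.209% of counts in a cultured cell and 0.000582% in an adult cell, with Col3a1, Dcn and Postn at 0 in every group. The cultured counts were of Fn1 (98 counts in 4 cells), Pdgfra (41 in 3) and Col1a2 (16 in 1), all at 0 in transplanted and adult cells. Endothelial markers (6 of 10 listed) took at most 0.110%, 0.00505% and 0% in transplanted, cultured and adult cells, with Cdh5 and Kdr at 0 throughout. Fabp4 of this list had 217 counts in 3 transplanted cells and none in the other groups. Smooth muscle and pericyte markers (6 of 7) reached 0.00901%, 0.177% and 0.164%, and macrophage and leukocyte markers (3 of 10) 0%, 0.0362% and 0%. The part of these differences in the results below was not tested.

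RefSeq held a promoter, from 250 bases before to 50 bases after the start site (build GRCm38.p6), for 38 of the 44 members. The 44 members lie on 17 chromosomes of the mouse, so letters that recur at separate start sites are shown, all from the mouse and none from the rat. YY1, a zinc finger factor linked to mitochondrial genes, has a known motif that was searched as AANATGGCG on both strands. It was found for 8 of these 38 members (21.1%), against 5.44% of the promoters of all listed genes and 2.38% of all 32851 RefSeq promoters. For each motif, members were counted by gene and the other shares by promoter. The 8 matches are printed with up to 10 bases on each side, 5′ to 3′ on the strand of the gene, with the motif in capitals:
Ndufa7, chr17:33824617-33824645, plus strand: gagcggaaggAATATGGCGtccgctactc
Ndufa9, chr6:126849097-126849125, minus strand: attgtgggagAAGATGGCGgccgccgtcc
Ndufaf8, chr11:120098934-120098962, plus strand: ggcagggcccAAGATGGCGgcgccctcga
Ndufb11, chrX:20617812-20617840, minus strand: tcaccaacacAAAATGGCGacgagaagag
Ndufc1, chr3:51408915-51408943, minus strand: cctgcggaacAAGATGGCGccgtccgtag
Ndufs4, chr13:114388045-114388069, minus strand: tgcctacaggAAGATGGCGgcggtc
Ndufs6, chr13:73328433-73328459, minus strand: ggtcaccggcAAGATGGCGgcggtgct
Ndufs7, chr10:80249463-80249491, plus strand: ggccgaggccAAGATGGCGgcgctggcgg
In 6 of these 8 genes (all but Ndufaf8 and Ndufb11) the capitals overlapped an annotated start codon, whose letters ATG are part of the motif. A match is a description of letters and not a bound site.

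NRF1, nuclear respiratory factor 1, binds a palindrome that was searched on both strands as GCATGCGC and in a longer form, with GC before those letters. The longer form was found for 3 of 38 members (7.89%) against 2.12% of the promoters of listed genes, and the shorter for 5 (13.2%) against 5.27%, each longer match also being a shorter one. The CCGGAAG motif of ETS factors such as GABP was found in 6 (15.8%) against 17.7%, and the TNAAGGTCA motif of oestrogen-related receptors in 1 (2.63%) against 0.780%. Upstream windows of a subunit gene and of an assembly factor show where these letters lie, in capitals (8 letters in Ndufa6, 10 in Ndufaf4):
Ndufa6, chr15:82354323-82354541, minus strand: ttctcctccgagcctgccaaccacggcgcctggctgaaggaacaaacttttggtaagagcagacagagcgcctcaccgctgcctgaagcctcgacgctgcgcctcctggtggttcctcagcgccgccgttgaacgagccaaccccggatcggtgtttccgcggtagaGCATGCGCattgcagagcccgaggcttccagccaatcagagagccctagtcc
Ndufaf4, chr4:24897833-24898082, plus strand: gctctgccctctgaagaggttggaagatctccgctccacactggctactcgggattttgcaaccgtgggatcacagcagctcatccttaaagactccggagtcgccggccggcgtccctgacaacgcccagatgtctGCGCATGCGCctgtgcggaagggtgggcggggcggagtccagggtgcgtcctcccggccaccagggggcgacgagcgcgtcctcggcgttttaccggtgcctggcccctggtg
Ndufa6 is an accessory subunit whose levels were high in transplanted and adult cells, and Ndufaf4 an assembly factor whose levels were not alike in them, as given below.

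Subunit genes together took 11.4% (11.3 to 11.5) of counts in transplanted cells, 0.738% (0.701 to 0.776) in cultured cells and 10.3% (10.3 to 10.4) in adult cells. Per cell, the share ran from 8.90 to 13.2% with a median of 11.2% in transplanted cells, and from 7.41 to 12.1% with a median of 10.9% in adult cells. Cultured cells A to H stood at 2.49, 0.118, 0.145, 0.0251, 0.0559, 0.963, 2.0 and 1.19%. Every transplanted and every adult cell therefore lay above every cultured cell, and the transplanted and adult ranges overlapped. Cultured A, F, G and H held 1409 of the 1521 subunit counts of their group (92.6%) in 41.1% of its total, and B, C, D and E, the cells with the high Rpph1 share, held 112. Without B to E the cultured share was 1.66%, and without F, G and H it was 0.429%. Without Ndufa4 the shares were 10.5%, 0.688% and 9.45% in transplanted, cultured and adult cells.

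**Figure D1:**
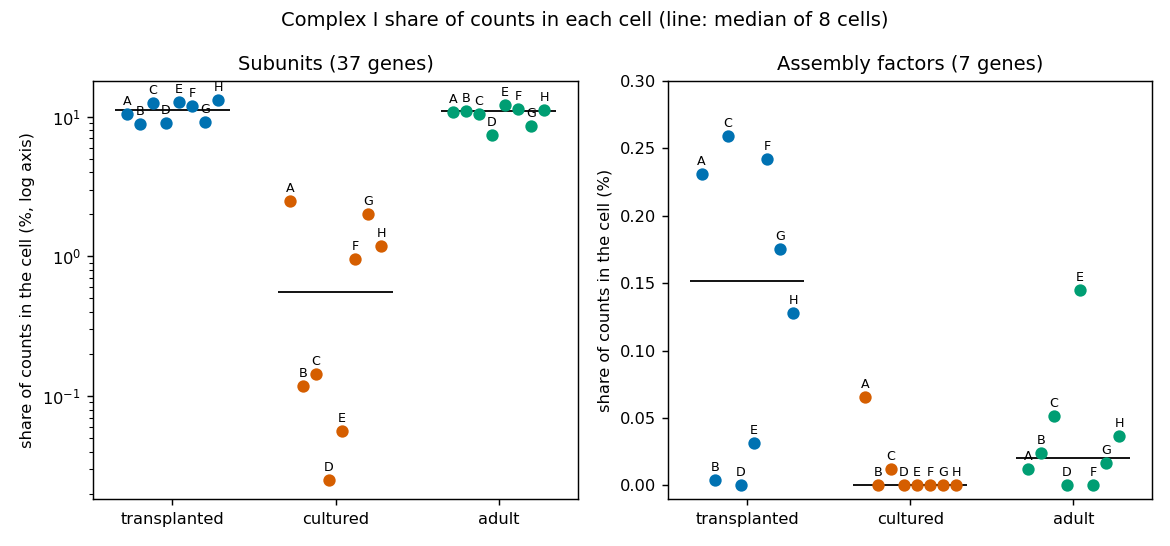
Share of counts (%) taken by 37 subunit genes (left, log axis) and 7 assembly factors (right, linear axis) in each cell, by group, with letters naming cells and lines at the median of 8 cells. Subunits lie between 8.90 and 13.2% in transplanted cells and between 7.41 and 12.1% in adult cells, above the highest cultured cell, A, at 2.49%.

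Assembly factors took far smaller shares. They held 0.123% (0.117 to 0.130) of counts in transplanted cells, 0.00728% (0.00407 to 0.0120) in cultured cells and 0.0345% (0.0314 to 0.0379) in adult cells. Their sum was 1608, 15 and 439 counts, so for every assembly factor count there were 92.4 subunit counts in transplanted, 101.4 in cultured and 299.7 in adult cells. These are raw counts of 37 genes against 7, not scaled for number or length of genes. Of the 15 cultured counts 13 were in cell A, and of the 1608 transplanted counts Ndufaf5 held 646 and Ndufaf4 433, each in 3 cells. Per cell the assembly share ran from 0 to 0.259% in transplanted, from 0 to 0.0656% in cultured and from 0 to 0.145% in adult cells, and the 3 groups overlapped at 0.

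The number of subunit genes with a count was lower in 7 of 8 cultured cells than in any transplanted or adult cell, and cultured A reached the lowest adult cells. Of 37, between 31 and 36 were detected in each transplanted cell, between 30 and 36 in each adult cell and between 1 and 30 in each cultured cell. At an equal depth of 16099 counts, the shallowest cell, the expected numbers were 30.6 to 35.0 in transplanted, 29.1 to 35.4 in adult and 0.998 to 29.2 in cultured cells. Cultured A was the cell with 30, as were adult D and F, and at equal depth its 29.2 lay just above the 29.1 of adult D. The other 7 cultured cells had 1 (D) to 17 (G). Over all listed genes, 553 to 1427 were detected in each transplanted cell, 763 to 2630 in each cultured and 635 to 1701 in each adult cell. At equal depth the expected numbers of all genes were 455 to 1047, 717 to 2438 and 504 to 1220 in that order. Cultured cells thus did not have fewer detected genes in general. By gene, 27 subunits had counts in all 8 transplanted cells, 24 in all 8 adult cells, 23 in both, and none in all 8 cultured cells. In culture 6 subunits had counts in at least 4 cells (Ndufa1, Ndufa3, Ndufa4, Ndufa6, Ndufa11 and Ndufb8), 9 had counts in 1 cell, and Ndufa8, Ndufs3 and Ndufa4l2 had none. Of the 37, 13 had any count in B to E and 32 had one in A, F, G or H.

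**Figure D2:**
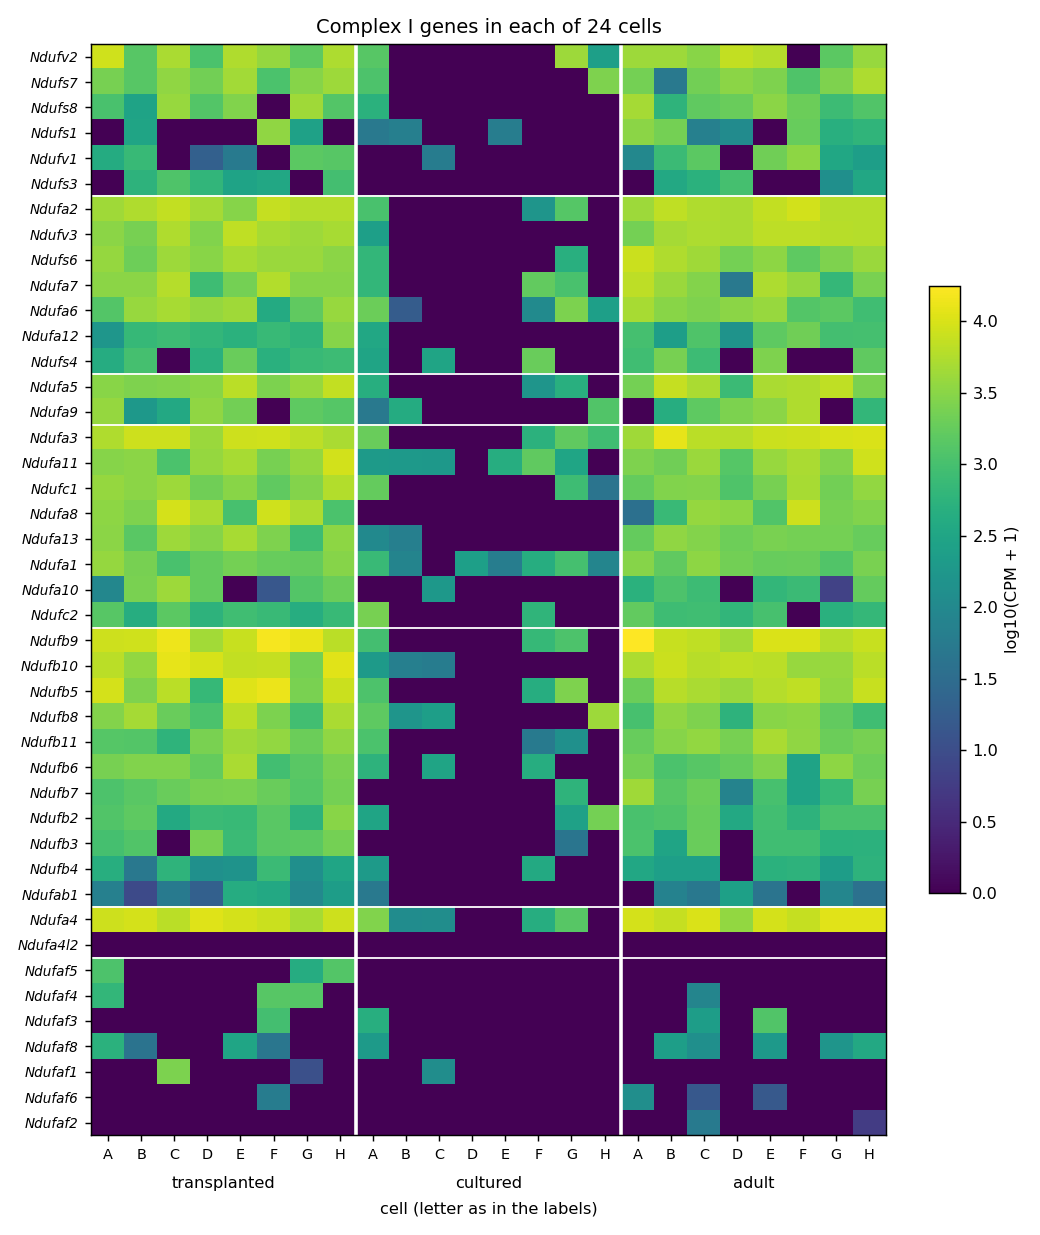
Each row is a complex I gene, ordered by role from core subunits (top) to assembly factors (bottom), each column 1 of 24 cells, and colour is log10(CPM + 1). Of the subunit rows, 27 are filled across all 8 transplanted cells and 24 across all 8 adult cells, cultured columns B to E hold 9, 8, 1 and 3 subunits, and assembly factor rows hold scattered single cells in every group.

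The comparison of transplanted with cultured cells asked how complex I genes stood after the same time in a heart or in a dish. All 36 subunit genes measured (at least 10 counts over both groups; Ndufa4l2 had none) were at least 2-fold higher in transplanted cells, where 22.5% of all 4958 measured genes were that much higher and 64.0% that much lower. Their median log2 ratio was 4.39, against -5.63 over all measured genes, with 1 CPM added to each level. Most other measured genes differ from the subunits in length and level, so 2 narrower backgrounds were added after the data were seen. Among genes with transcripts of up to 1000 bases, 47.2% were at least 2-fold higher and the median was 1.31. Among genes of at least 100 CPM over both groups, 62.9% were higher and the median was 2.08. That level pools 1302871 transplanted and 206178 cultured counts, so genes high in transplanted cells pass it more readily. Over all measured genes the depths act the other way, with floors of 2.30 CPM in transplanted and 14.6 CPM in cultured cells. A gene with counts in 1 group alone is called lower at fewer counts than it is called higher. Of the 36 subunits, 13 were higher in every transplanted cell than in every cultured cell, against 1.33% of all genes. None was lower in every transplanted cell, against 0.101%. Against cultured A, F, G and H alone, 33 of 36 were at least 2-fold higher, beside 23.6% of 3493 genes, and the median log2 ratio was 3.42. The 3 others, outside the rule for named genes, were Ndufc2 at a ratio of 1.18 (0.904 to 1.56), Ndufs4 at 1.68 (1.23 to 2.36) and Ndufb2 at 1.97 (1.54 to 2.55).

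Per role, core subunits had a median log2 ratio of 5.07, the N module of 4.36, the Q module of 3.99, the proximal arm of 3.88 and the distal arm of 4.45. The medians of the roles were not tested against each other. Single subunits began at 1.51 for Ndufc2, and the highest value, 11.9 for Ndufa8, a gene with no cultured count, depends on the 1 CPM added. The adult comparison, which shares its cultured cells with the first, also had 36 of 36 measured subunits at least 2-fold higher, against 23.0% of 5132 genes, of which 62.1% were that much lower. Its median was 4.31 against -3.85 over all genes, 1.30 for transcripts of up to 1000 bases and 2.15 for genes of at least 100 CPM. The same limits of depth hold for these backgrounds. Adult cells are of the rat and cultured cells of the mouse, and a mouse build was used for both. Species and condition therefore cannot be told apart in any ratio of adult to cultured cells. In all, 13 subunits were higher in every adult than in every cultured cell, against 1.27% of genes, and none lower in every adult cell, against 0.0585%. Against cultured A, F, G and H alone, 33 of 36 were at least 2-fold higher, beside 23.4% of 3745 genes, and the median log2 ratio was 3.17. Here the others were Ndufb8 at a ratio of 1.22 (1.02 to 1.46), Ndufc2 at 1.22 (0.938 to 1.62) and Ndufb2 at 1.29 (1.01 to 1.68).

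Core subunits carry the flavin, the iron-sulphur clusters and the quinone site. Ndufv2, an iron-sulphur protein of the N module (chr17:66078638-66101559, mm10), stood at 4326 CPM (4214 to 4440) in transplanted cells, 621 CPM (518 to 738) in cultured and 3890 CPM (3782 to 4000) in adult cells. Its transplanted cells ran from 1119 over a median of 4392 to 8615 CPM and its adult cells from 0 over 4084 to 7221 CPM. In culture it was present in A, G and H, at up to 4148 CPM in G, so the groups overlapped. Against culture it was 6.97-fold (5.85 to 8.37) in transplanted and 6.27-fold (5.26 to 7.53) in adult cells, or 23.3 and 21 without cultured G. Ndufs7, which carries the last cluster before the quinone, had 3042 CPM (2948 to 3138), 417 CPM (334 to 515) and 2699 CPM (2610 to 2791) in the same order. Its cultured counts came from A and H, at 1161 and 2638 CPM, within the transplanted range of 1103 to 4521 CPM (median 2680) and the adult range of 50.8 to 5359 CPM (median 2500). It stood 7.29-fold (5.89 to 9.14) in transplanted and 6.47-fold (5.22 to 8.11) in adult cells over culture, and without cultured H 24.1 and 21.4.

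Ndufs8, the other iron-sulphur core subunit near the quinone site, had 1659 CPM (1590 to 1731) in transplanted cells, 48.5 CPM (23.3 to 89.2) in cultured ones and 2141 CPM (2061 to 2223) in adult ones. Cell medians were 1290 CPM in transplanted cells (0 to 4453) and 1751 CPM in adult cells (567 to 4738). In culture all 10 of its counts were in A, at 505 CPM. By group sums the ratio to culture was 34.2-fold (18.6 to 71.4) in transplanted and 44.1-fold (24 to 92.1) in adult cells. Without cultured A these became at least 103 and at least 133. Ndufs1, Ndufs3 and Ndufv1 had at most 6 counts in all cultured cells. Of these, Ndufs3 had 713 counts in transplanted cells, 364 in adult cells and 0 in cultured ones. Its ratios to culture were at least 37.6 and at least 19.7, the latter at least 13.0 without adult D.

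Accessory subunits of the N module surround the flavin site. Ndufa2, a small subunit of the thioredoxin fold, had 5400 CPM (5274 to 5527) in transplanted cells, 262 CPM (197 to 342) in cultured ones and 5988 CPM (5854 to 6124) in adult ones. Its lowest transplanted and adult cells, at 2994 and 4268 CPM (medians 5706 and 5966, highest 7400 and 8992), lay above the highest cultured cell at 1324 CPM. Over culture, Ndufa2 was 20.6-fold (15.8 to 27.5) in transplanted and 22.9-fold (17.5 to 30.5) in adult cells, or 41.3 and 45.8 without cultured G. Ndufv3, an accessory subunit on the flavin-carrying tip, had 4527 CPM (4412 to 4644), 24.3 CPM (7.87 to 56.6) and 5184 CPM (5059 to 5310). Transplanted cells ran from 2375 over 4606 to 6856 CPM, adult cells from 2320 over 5612 to 6744 CPM, and cultured A alone had counts, at 252 CPM. Neither group overlapped the cultured cells, and ratios to culture were 187-fold (79.9 to 575) in transplanted and 214-fold (91.5 to 659) in adult cells, or at least 281 and at least 322 without A.

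Ndufs6, a zinc-binding subunit needed late in assembly, had 3624 CPM (3522 to 3729) in transplanted cells, 116 CPM (74.6 to 173) in cultured ones and 4227 CPM (4115 to 4342) in adult ones. Its transplanted cells held 2005 to 4817 CPM (median 3891), its adult cells 1575 to 8023 CPM (median 3652), and cultured A and G at most 656 CPM. Both groups lay above every cultured cell, and the ratios were 31.1-fold (20.9 to 48.6) in transplanted and 36.3-fold (24.4 to 56.7) in adult cells, or 61.4 and 71.6 without cultured A and 51.2 and 59.7 without G. Ndufa6, an LYR-motif subunit whose upstream sequence is printed above, had 3146 CPM (3051 to 3244), 514 CPM (421 to 622) and 2729 CPM (2639 to 2821). Cells ran from 396 over 3804 to 4910 CPM in transplanted, from 890 over 2868 to 4881 CPM in adult and from 0 over 62.3 to 2559 CPM in cultured cells, which overlapped both. Ratios to culture were 6.12-fold (5.05 to 7.49) in transplanted and 5.31-fold (4.37 to 6.50) in adult cells, or 12.0 and 10.4 without cultured G.

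In the Q module, Ndufa5 had 4662 CPM (4546 to 4781), 112 CPM (70.7 to 167) and 4119 CPM (4009 to 4233) in transplanted, cultured and adult cells. Transplanted cells held 2597 to 7315 CPM (median 3086), adult cells 794 to 7403 CPM (median 5073) and cultured cells at most 485 CPM, with no overlap. It was 41.8-fold (27.8 to 66.0) in transplanted and 36.9-fold (24.6 to 58.3) in adult cells over culture, or 71.3 and 63.0 without cultured G. Ndufa9, which stabilises the junction of both arms, had 1665 CPM (1595 to 1736), 272 CPM (205 to 353) and 1462 CPM (1396 to 1530). It was absent from 1 transplanted and 2 adult cells, and its highest cells had 3691, 1256 and 5528 CPM around medians of 1456, 0 and 1113 CPM. Those sums gave 6.13-fold (4.70 to 8.14) in transplanted and 5.38-fold (4.13 to 7.15) in adult cells over culture, or 11.7 and 10.3 without cultured H.

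Proximal membrane arm subunits join the pump to the matrix arm. Ndufa3 had 6618 CPM (6480 to 6760) in transplanted cells, 514 CPM (421 to 622) in cultured ones and 7964 CPM (7809 to 8120) in adult ones. Its cells ran from 3976 over 7557 to 8807 CPM, from 0 over 271 to 1918 CPM and from 4317 over 8278 to 12403 CPM, so cultured cells lay below both other groups. It was 12.9-fold (10.6 to 15.7) in transplanted and 15.5-fold (12.8 to 18.9) in adult cells over culture, and no single cell moved these values by over 1.5 times. Ndufa11 had 4879 CPM (4760 to 5001), 306 CPM (235 to 391) and 3981 CPM (3872 to 4092), with cell medians of 3504, 200 and 3348 CPM. Its highest cultured cell, F at 1624 CPM, exceeded the lowest transplanted cell at 1092 CPM and the lowest adult cell at 1341 CPM. Ndufa11 was 16-fold (12.5 to 20.8) in transplanted and 13.0-fold (10.2 to 17.0) in adult cells over culture, or 27.8 and 22.6 without F.

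Ndufc1 had 3636 CPM (3533 to 3741), 267 CPM (201 to 347) and 2617 CPM (2529 to 2708), which is 13.6-fold (10.5 to 18.1) in transplanted and 9.81-fold (7.52 to 13.1) in adult cells over culture, or 33.9 and 24.4 without cultured A. Cultured A held it at 1767 CPM, inside the transplanted range of 1599 to 5662 CPM (median 3193) and the adult range of 1211 to 4837 CPM (median 2533). Ndufa1, the small X-linked subunit in the membrane, was the subunit seen in most cultured cells, 7 of 8. Its cells held 1047 to 3769 CPM (median 2020) after transplantation, 0 to 971 CPM (median 167) in culture and 1222 to 3308 CPM (median 2057) in the adult, without overlap between cultured cells and the rest. The sums were 2382 CPM (2299 to 2467), 291 CPM (222 to 375) and 2259 CPM (2177 to 2343), which is 8.18-fold (6.34 to 10.8) in transplanted and 7.76-fold (6.01 to 10.2) in adult cells over culture.

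Ndufa8 and Ndufc2 of this arm were picked after their values were seen, for the ends of the range. Ndufa8, an intermembrane-space subunit with paired CX9C motifs, had 4838 counts in transplanted and 3224 in adult cells and none in culture, a ratio of at least 255 and at least 174. Ndufc2 had the smallest transplanted ratio, 2.86 (2.20 to 3.80), with 805 CPM (757 to 855) against 281 CPM (214 to 364). Cultured A held 81.0% of its cultured counts, at 2373 CPM, above the highest transplanted cell at 1520 CPM. Without that cell the ratio was 13.6, and without B to E it was 1.18. In adult cells Ndufc2 was 2.97-fold over culture (2.28 to 3.94), or 14.2 without cultured A.

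Among distal membrane arm subunits, Ndufb9 (chr15:58933756-58939488, mm10), an LYR-motif subunit, had 8837 CPM (8677 to 9000) in transplanted cells, 281 CPM (214 to 364) in cultured ones and 9238 CPM (9072 to 9407) in adult ones. Transplanted cells ran from 4577 over 8511 to 15645 CPM and adult cells from 4590 over 7769 to 17632 CPM, above all cultured cells, which reached 1147 CPM. Ndufb9 was 31.4-fold (24.3 to 41.4) in transplanted and 32.8-fold (25.4 to 43.3) in adult cells over culture, or 50.7 and 53.0 without cultured G. Ndufb10, another CX9C subunit, had 8197 CPM (8043 to 8354), 43.7 CPM (20 to 82.9) and 5819 CPM (5687 to 5953). Its 9 cultured counts gave at most 202 CPM in a cell, against 2257 to 12061 CPM in transplanted cells (median 7246) and 3879 to 7927 CPM in adult cells (median 6199). Cultured cells lay below all others, and the ratios were 188-fold (98.9 to 411) in transplanted and 133-fold (70.2 to 292) in adult cells, or 306 and 217 without cultured A.

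Ndufb5 had 7272 CPM (7126 to 7420), 441 CPM (355 to 542) and 5009 CPM (4887 to 5133) in transplanted, cultured and adult cells, which is 16.5-fold (13.4 to 20.5) in transplanted and 11.3-fold (9.23 to 14.1) in adult cells over culture, or 43.0 and 29.7 without cultured G. That cell held it at 2648 CPM, inside the transplanted range of 697 to 13254 CPM (median 7137) and the adult range of 1989 to 7769 CPM (median 5481). Ndufb8 was seen in 4 cultured cells, most among the distal subunits, at 703 CPM (593 to 828), with 3713 CPM (3609 to 3819) in transplanted and 1876 CPM (1802 to 1953) in adult cells. Cultured H held it at 4187 CPM, above the medians of transplanted (2716 CPM; 919 to 6478) and adult cells (2192 CPM; 553 to 3452). It was 5.28-fold (4.47 to 6.27) over culture in transplanted and 2.67-fold (2.26 to 3.18) in adult cells, and without H 15.0 and 7.60. Against A, F, G and H alone the ratios were 2.40 and 1.22. Ndufa4, the complex IV subunit by its later assignment, had 8522 CPM (8364 to 8682), 500 CPM (408 to 606) and 8993 CPM (8829 to 9159). Its cells did not overlap between cultured (at most 2776 CPM, median 118) and transplanted (4882 to 11079 CPM, median 8383) or adult cells (3679 to 11366 CPM, median 9306). Ndufa4 was 17.1-fold (14.1 to 20.9) in transplanted and 18.0-fold (14.8 to 22.1) in adult cells over culture, or 33.1 and 34.9 without cultured A. Ndufa4l2, a paralog known from hypoxia, had no count in any cell, which allows up to 2.30, 14.6 and 2.36 CPM in transplanted, cultured and adult cells.

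**Figure D3:**
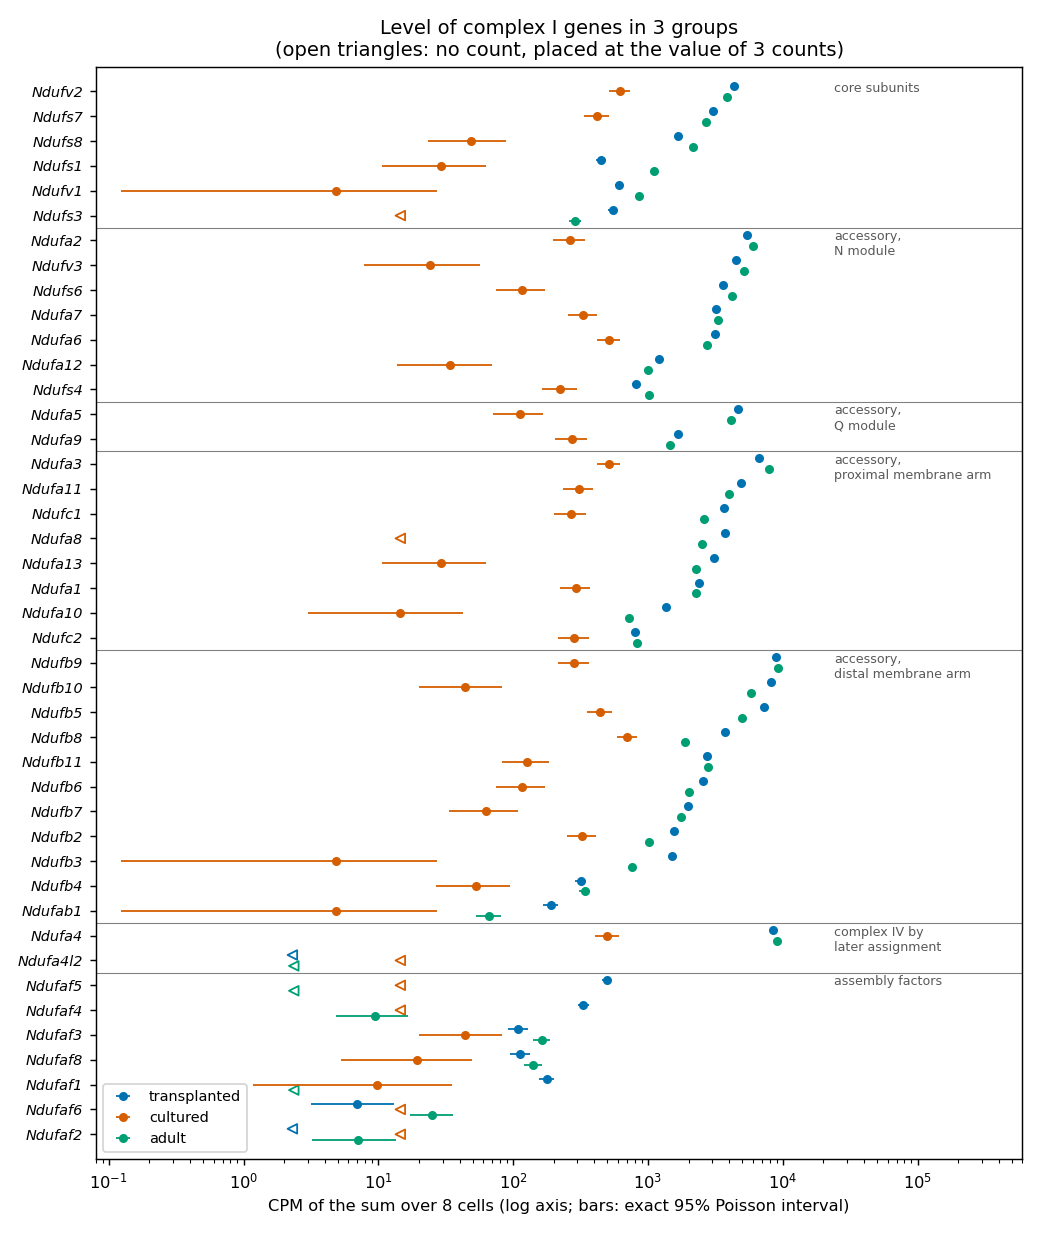
Level of complex I genes in CPM of the sum over 8 cells (log axis), with exact 95% Poisson intervals, by group, ordered by role and by mean level, and with open triangles for groups with no count at the value of 3 counts. For all 35 subunits drawn that had counts the cultured point lies left of both others, and for 33 of them the transplanted and adult points lie within 2-fold of each other.

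The comparison of adult with transplanted cells, which shares a group with each of the others, asked how far the subunits stood from the adult rat heart. Of 36 measured subunits, 33 (91.7%) lay within 2-fold, 1 was at least 2-fold higher in adult cells and 2 were at least 2-fold lower. Over all 3501 measured genes 44.3% were higher, 34.8% lower and 20.9% within 2-fold. Among genes of at least 100 CPM 43.4% lay within 2-fold, and among transcripts of up to 1000 bases 44.4%. The median log2 ratio of the subunits was -0.18, against 0.37 over all measured genes. Without single cells it ran from -0.27 to 0.01. No subunit had its adult cells all above or all below its transplanted cells, and over all genes that share was also 0%. Across the 36 subunits with counts, the levels of both groups had a Spearman's rho of 0.94, against 0.57 over the 2043 genes with counts in both. These points share libraries, and a gene's own length enters both of its levels. All 36 subunits had at least 100 CPM over both groups, while the 2043 genes include any with a count in each. The 2 values of rho are therefore not matched for level. Mouse and rat cells were both set against a mouse build, per the submitters' processing notes, so species and condition cannot be told apart in this comparison either.

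By role the median log2 ratio of adult to transplanted was -0.15 in core subunits, 0.15 in the N module, -0.18 in the Q module, -0.37 in the proximal arm and -0.49 in the distal arm. In the N module 5 of 7 were higher in adult cells, all 7 within 2-fold, and in the distal arm 8 of 11 were lower, and 10 of the 11 lay within 2-fold. Over all subunits 14 of 36 were higher and 22 lower in adult cells, and over all measured genes 1908 of 3501 were higher and 1593 were not. The modules were not tested against each other. Among the best covered members, Ndufb9 was 1.05-fold (1.02 to 1.07), Ndufa4 1.06-fold (1.03 to 1.08) and Ndufa3 1.20-fold (1.17 to 1.24) of transplanted in adult cells, and Ndufb10 0.710 (0.689 to 0.731) and Ndufb5 0.689 (0.667 to 0.711). Ndufs1 (chr1:63143596-63176833, mm10), the largest core subunit, was the exception on the high side. It had 448 CPM (413 to 486) in transplanted and 1112 CPM (1055 to 1172) in adult cells, 2.48-fold higher (2.25 to 2.74). Transplanted B, F and G held it at 298, 3436 and 270 CPM and the other 5 had none, while 7 of 8 adult cells had it, from 69.4 to 3196 CPM. Transplanted F held 89.0% of its group's counts, and without that cell the adult ratio was 20. Without adult A it was 1.49, and no subunit was then at least 2-fold higher. Against cultured cells (29.1 CPM, 10.7 to 63.3) its transplanted ratio was 15.4 (7.03 to 42.1), or 1.91 without transplanted F and 32.6 without cultured B, and its adult ratio was 38.2 (17.5 to 104), or 80.8 without cultured B and 22.9 without adult A.

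On the low side, Ndufab1, the mitochondrial acyl carrier protein, was named after its values were seen. It had 190 CPM (167 to 215) in transplanted and 66.1 CPM (52.7 to 81.8) in adult cells, a ratio of 0.348 (0.269 to 0.448), or 0.212 without adult D. Its cells overlapped, from 8.05 over 85.1 to 419 CPM and from 0 over 45.7 to 254 CPM. Just inside the 2-fold limit were Ndufb8 (0.505), Ndufb3 (0.508) and Ndufs3 (0.523). The last became 0.345 without adult D. Leaving out transplanted H, the deepest cell, took Ndufv1, the flavin-binding core subunit, from 1.39 to 2.61 and Ndufa12 from 0.830 to 1.73.

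**Figure D4:**
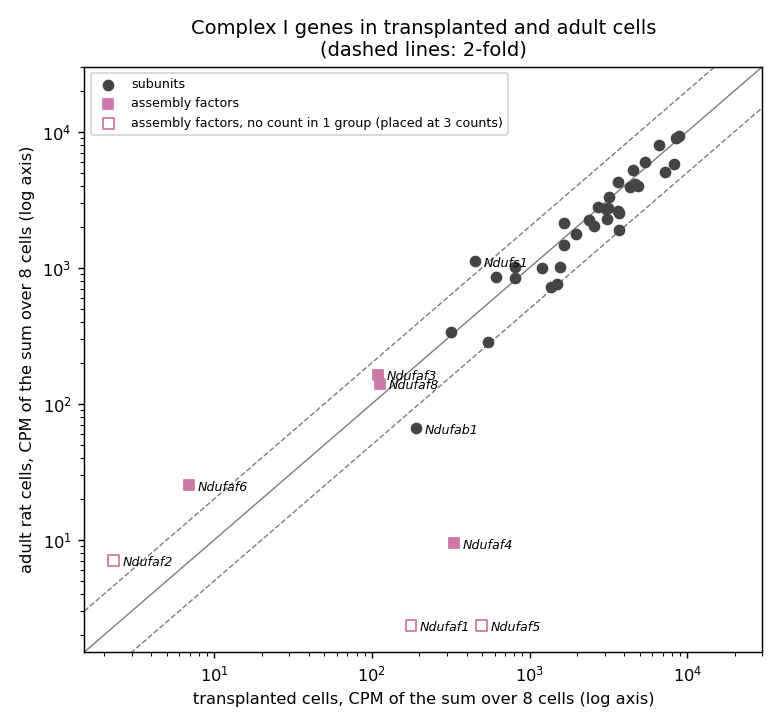
Each point is a complex I gene, by its CPM in transplanted (x) and adult (y) cells, both summed over 8 cells and on log axes, with subunits as circles, assembly factors as squares, open symbols for no count in 1 group, a line of equality and dashed lines at 2-fold. Of 35 subunits drawn, 33 lie between the dashed lines, and Ndufaf1, Ndufaf4 and Ndufaf5 lie far below them.

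Assembly factors bring cofactors and subunits together before the finished enzyme forms. Against cultured cells, all 5 measured factors were at least 2-fold higher after transplantation (median log2 ratio 4.06), beside the 22.5% of all genes. In adult cells 2 of 4 measured were at least 2-fold higher, beside 23.0% of all genes, with a median of 3.09, or 1.34 with groups of no count set at the floor. The other 2, Ndufaf4 at a ratio of at least 0.649 and Ndufaf6 at one of at least 1.73, had no cultured count, so only these lower bounds can be given. In both comparisons with culture, each measured factor had 0 to 9 cultured counts. Each therefore reached the 10 counts of a measured gene only through its transplanted or adult counts. The numbers called higher were thus largely set by that minimum and cannot show a direction for the factors. Between adult and transplanted cells, 1 of 6 was at least 2-fold higher, 3 were lower and 2 lay within 2-fold, beside 44.3%, 34.8% and 20.9% of all genes, and the median was -2.34. These genes had counts in few cells. In transplanted cells an assembly factor was seen in a median of 2 cells and at most 4, and 1 cell held a median of 83.8% of its counts, where a subunit was seen in a median of 8 cells and its top cell held 32.8%. In adult cells the top cell held 87.5% for assembly factors and 28.3% for subunits.

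Level goes with detection, so genes in the same range of CPM were set beside them. In transplanted cells, all 2049 genes between 6.91 and 496 CPM were seen in a median of 1 cell and the 6 assembly factors with counts in 2.5. The 3 subunits in that range had a median of 8 cells (3 to 8). Ndufs1 was the one in 3 cells, with 89.0% of its counts in 1 of them. In adult cells, the 1902 genes between 7.08 and 163 CPM had a median of 1 cell, 5 assembly factors 2, and Ndufab1, the sole subunit there, was in 6. In cultured cells the medians lay closer, at 1 cell for the 2675 genes between 9.70 and 43.7 CPM and for the 3 assembly factors, and at 1.5 cells (1 to 3) for the 6 subunits in that range. Per kilobase, subunits had medians of 3175, 139 and 2945 CPM per kb in transplanted, cultured and adult cells, and assembly factors 91.5, 0 and 11.5. Core subunits had 786, 11.1 and 558 CPM per kb, below the N module accessory subunits with 6381, 205 and 7144. Core transcripts were also longer, with a median of 1312 bases against 572, and across the 36 subunits longer transcripts were seen in fewer cells (Spearman's rho -0.56 in transplanted and -0.61 in adult cells).

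Ndufaf5, which modifies the core subunit Ndufs7 by hydroxylation (chr2:140170649-140203689, mm10), had the highest transplanted level of the 7 factors per kilobase. Transplanted A, G and H held it at 1148, 429 and 1278 CPM, and it had no count in the other 5, in cultured or in adult cells. Its 646 counts made 496 CPM (458 to 536), at least 34.1-fold above cultured cells, or 14.8 without transplanted H. Adult cells were at most 0.00476 of transplanted, and at most 0.0110 without that cell.

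Ndufaf4, a partner of Ndufaf3 in building the Q module, was likewise seen in 3 transplanted cells, A, F and G, at 648, 1381 and 1318 CPM. Adult C alone had it in the adult group, at 83.2 CPM, and no cultured cell did. The transplanted sum was 332 CPM (302 to 365), at least 22.8-fold above culture or 13.4 without transplanted F. The adult sum of 9.44 CPM (4.88 to 16.5) was 0.0284 (0.0146 to 0.0501) of it, or at most 0.00801 without adult C and 0.0485 without transplanted F. Ndufaf1, an early factor of the membrane arm, had 230 of its 231 transplanted counts in cell C, at 2590 CPM, and 1 in G. Cultured C had 2 counts and adult cells had none. Its transplanted ratio to culture was 18.3 (5.0 to 152), or at least 11.2 without cultured C, and adult cells were at most 0.0133 of transplanted. No ratio could be given without transplanted C.

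Ndufaf3 was held by transplanted F at 938 CPM, cultured A at 454 CPM, and adult C and E at 229 and 1242 CPM. Its sums were 109 CPM (91.8 to 128), 43.7 CPM (20 to 82.9) and 163 CPM (141 to 187), so it was 2.50-fold higher in transplanted (1.28 to 5.57) and 3.73-fold higher in adult cells (1.93 to 8.27) than in culture. These directions rested on single cells, with at most 0.0597 without transplanted F and 0.668 without adult E, and at least 6.77 and at least 10.1 without cultured A. Against cultured A, F, G and H alone they were 1.03 (0.53 to 2.29) and 1.53 (0.793 to 3.40). Adult over transplanted, Ndufaf3 was 1.49-fold (1.20 to 1.86), or at least 62.5 without transplanted F and 0.268 without adult E. Ndufaf8, a small CX9C partner of Ndufaf5, was the factor seen most widely, in 4 transplanted, 1 cultured and 5 adult cells. Its cells reached 514, 202 and 365 CPM around medians of 20.1, 0 and 147 CPM. Sums were 113 CPM (95.3 to 133), 19.4 CPM (5.29 to 49.7) and 141 CPM (121 to 163), and the adult ratio to transplanted was 1.25 (0.998 to 1.56), or 2.21 without transplanted A. Its ratios to culture were 5.82 (2.22 to 21.6) in transplanted, or 3.29 without transplanted A and at least 7.01 without cultured A, and 7.26 (2.79 to 26.9) in adult cells, or at least 8.75 without cultured A.

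Ndufaf6 had 9 counts in transplanted F and 28, 2 and 2 in adult A, C and E. The adult sum of 25.2 CPM (17.2 to 35.5) was 3.64-fold (1.70 to 8.68) the transplanted 6.91 CPM (3.16 to 13.1). Without adult A the ratio was 0.553, and without transplanted F at least 9.66. Ndufaf2, which takes part in the last steps of assembly, had 8 counts in adult C, 1 in adult H and none elsewhere, under the 10 counts set for a measured gene. These last values are near the floor of what this depth can show.

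Of 18 genes taken as assembly factors without the Nduf name, 14 were listed. They took 0.0577, 0.0490 and 0.0547% of counts in transplanted, cultured and adult cells. In transplanted against cultured cells 3 of 7 measured were at least 2-fold higher and 2 lower, beside 22.5% and 64.0% of all measured genes. Adult cells had 3 of 8 higher and 3 lower than culture, beside 23.0% and 62.1%. They had 5 of 9 higher and 4 lower than transplanted cells, beside 44.3% and 34.8%. The 3 of highest mean level on this list were Atp5s, Ecsit and Nubpl, the last an iron-sulphur carrier for complex I. Atp5s is named for ATP synthase and is also counted with ATP synthase below. Its place among assembly factors of complex I is not established here, and the counts and shares of this list include it. Atp5s had 178, 223 and 9.44 CPM in transplanted, cultured and adult cells, in 2, 2 and 1 cells. Ecsit had 89.8, 0 and 191 CPM, in 2, 0 and 2 cells, and Nubpl had 167 CPM in 1 transplanted cell and none elsewhere.

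Electron transport partners feed or follow the chain beside complex I. Of 9, 7 were at least 2-fold higher and 1 lower in transplanted than in cultured cells, beside 22.5% and 64.0% of all measured genes. The numbers were the same in adult cells, beside 23.0% and 62.1%. Sdhb, the iron-sulphur subunit of complex II, had 4050 CPM (3942 to 4161), 529 CPM (434 to 638) and 5699 CPM (5568 to 5831). Etfb, of the electron transfer flavoprotein of fat oxidation, had 5081 CPM (4959 to 5205), 286 CPM (218 to 369) and 4132 CPM (4021 to 4245), and its partner Etfa had 1796 CPM (1724 to 1870), 14.6 CPM (3.00 to 42.5) and 1486 CPM (1419 to 1554). Sdha, the flavin subunit of complex II, picked after its values were seen, had its highest level in adult cells. It had 49.9 CPM (38.5 to 63.6) in 3 transplanted cells, 189 CPM (135 to 259) in 4 cultured cells and 1105 CPM (1048 to 1164) in 8 adult cells, 22.1-fold (17.3 to 28.9) above transplanted.

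In the other complexes, the transplanted to cultured median log2 ratio was 1.53 in complex II (2 of 4 at least 2-fold higher), 4.34 in complex III (8 of 8), 4.47 in complex IV (11 of 14) and 3.43 in ATP synthase (14 of 16). Mitochondrial ribosomal proteins had 2.07, with 41 of 64 higher and 10 lower. Over all measured genes the median was -5.63, with 22.5% at least 2-fold higher and 64.0% lower. Between adult and transplanted cells 7 of 8 complex III genes, 13 of 14 of complex IV and 14 of 16 of ATP synthase lay within 2-fold. Of mitochondrial ribosomal proteins 25 of 66 did, and of all measured genes 20.9%. These lists were not tested against each other.

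Regulators of mitochondrial genes were barely seen. All 12 were listed, and they took 0.00944, 0.0592 and 0.00763% of counts in transplanted, cultured and adult cells. Of 6 measured, 1 was at least 2-fold higher and 5 were lower in transplanted than in cultured cells, and of 8, 1 was higher and 5 lower in adult cells. Over all genes 22.5% were higher and 64.0% lower in the first comparison and 23.0% and 62.1% in the second, so most measured genes were lower there too. Yy1, whose motif letters are shown above, had 2, 43 and 0 counts in 1, 3 and 0 cells. Esrrg, an oestrogen-related receptor of oxidative muscle, had 0, 27 and 0 counts, and Tfam, the packaging factor of mitochondrial DNA, 0, 21 and 2. At these counts a gene's presence in a cell was near the limit of detection.

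Exons of 19 of the 44 members overlap another gene in the annotation, among them Ndufa2, Ndufa3, Ndufa9, Ndufa11, Ndufa13, Ndufab1, Ndufaf2, Ndufaf3, Ndufb2, Ndufb5, Ndufb6, Ndufb8, Ndufb9, Ndufb11, Ndufs1, Ndufs3, Ndufs6 and Ndufa4l2. The strand setting of the counting is not given in the sources used here, so reads in those stretches may belong to either gene.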

How the data were processed

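Single-cell RNA was copied with a template-switching enzyme, amplified, cut with Tn5 and sequenced, per the labels' protocols, with no molecular identifiers stated. The authors deposited 1 table of raw counts. Per the submitters' processing notes, TopHat2 2.1.0, HTSeq, DESeq2 and mm10, a mouse build, were used, also for rat cells. The counting tool, annotation, strand and row selection were not given in the sources used here. The table lists 9595 genes, 692 of them with no count.

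Groups followed the sample titles. Counts were summed over the 8 cells of a group. CPM has exact Poisson, ratios exact conditional binomial and shares Clopper-Pearson intervals at 95%. Medians add 1 CPM. A call is a 2-fold ratio among genes with at least 10 counts over both groups. Transcript length is the median spliced length of coding transcripts in GENCODE M21 (99.2% of genes matched, 180 by an older name). Promoters came from RefSeq. The ratio and its interval were tested on simulated data. Cells of a group were compared by chi-square, which was at least 4.98 per degree of freedom.

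Members and lists were chosen with earlier results of these data known. Counts and medians over the members include 1 gene that is not reported here on its own or drawn. Named genes are the 3 of highest mean CPM per role and per other list, all Ndufaf genes, members past 2-fold against the subunit median, and members with counts in at least 4 cultured cells. Alternatives were edgeR 4.0.16 TMM and DESeq2 1.42.0 size factors, equal cell weights, other minimums, totals, pseudocounts and members, and leaving out cells. Python 3.11.15, scipy 1.17.1 and R 4.3.3 were used.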

Additional observations from a re-analysis of the deposited data

Results flagged for a closer look

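Gaps between the highest or lowest cell and its neighbour were checked in 51 sets of 8 cells, and 6 exceeded Dixon's 95% critical value. Chance alone flags about 1 set in 20 where values are normally distributed, which was not checked here and need not hold for sets with many zeros. Assembly factors took 0.0656% of counts in cultured A and 0.145% in adult E, each far above the other 7 cells of its group. In culture only A and C had any assembly factor count, so a gap in that set was almost given. Ndufa11 reached 1624 CPM in cultured F, and Ndufb8 reached 4187 CPM in cultured H. Adult A stood apart for a pair of genes, with Ndufb9 high at 17632 CPM and Ndufv3 low at 2320 CPM.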

How the results depend on the processing

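No paired analysis was possible because the letters A to H only name cells and no test was made. Subunit counts past 2-fold against cultured cells were 36 under all scalings, totals and minimums tried, and 35 or 36 without 1 cell (35 without transplanted F). TMM raised the median of all genes by 0.87 (transplanted) and 0.88 (adult) on the log2 scale against culture and the subunit medians to 5.31 and 5.23. Equal cell weights moved the median of all genes by 0.82, 0.13 and -0.12 (transplanted against cultured, adult against cultured, adult against transplanted). DESeq2 size factors moved it by 0.19 and 0.13 against culture, the total without the 10 genes of most counts by 0.25 and 0.24, and the protein-coding total by -0.21 and -0.19. Without cultured B to E, chosen after the data were seen, 33 subunits were past 2-fold in each comparison with culture, the subunit medians were 3.42 and 3.17, and 1 assembly factor in place of 2 was at least 2-fold higher in adult cells. Without 1 cell the medians ran from 3.94 to 5.06 (transplanted), from 3.86 to 5.10 (adult) and from -0.27 to 0.01 (adult against transplanted). Assembly factors higher without 1 cell numbered 4 to 5, 1 to 3 and 0 to 2 in these comparisons. Adult against transplanted, 2 subunits in place of 1 were at least 2-fold higher with equal weights and 0 to 1 without 1 cell, and assembly factors numbered 0 with at least 50 counts and 2 with at least 1 count, in place of 1. Subunit shares in transplanted, cultured and adult cells were 15.3, 0.795 and 13.6% without the 10 genes of most counts, 11.7, 0.862 and 10.6% of protein-coding counts, and 10.5, 0.688 and 9.45% without Ndufa4. Equal weights gave 11.0% in transplanted and 0.874% in cultured cells. Cultured cells had 1.66% without B to E and 0.429% without F to H. Without 1 cell the shares ran from 10.8 to 11.7%, from 0.551 to 0.997% and from 10.1 to 10.8%. Among member ratios past 2-fold, directions turned in 3 places without 1 cell, for Ndufaf3 against culture (at most 0.0597 without transplanted F, and 0.668 without adult E, but at least 6.77 for transplanted cells without cultured A) and for Ndufaf6 in adult against transplanted cells (0.553 without adult A, at least 9.66 without transplanted F). Adult against transplanted, ratios within 2-fold turned more often, with moves over 1.5 times for Ndufa12 (0.830 to 1.73) and Ndufb2 (0.657 to 1.03) without transplanted H and Ndufaf3 (1.49 to 0.268) without adult E. The cause was not tested, beyond 1 cell holding most counts of these genes. Of the alternatives for single named members, 1183 stayed within the counting interval of the reported ratio, or within 1.5 times of a bound. Another 395 moved outside that range or gave no usable bound, and 3 turned direction. Depth limits the cultured group most, where the floor of 3 counts is 14.6 CPM.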
